A study of Mus musculus with 2 samples.

Results

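The Slco genes encode the organic anion transporting polypeptides, and 8 of them were followed in the kidneys of Reg-2 CKO and control mice: Slco1a1 (gene ID 28248), Slco1a4 (28250), Slco1a6 (28254), Slco2a1 (24059), Slco2b1 (101488), Slco3a1 (108116), Slco4a1 (108115) and Slco4c1 (227394). They were chosen by symbol and made up 8 of the 20002 genes with a value. RNA of the left kidney of C57BL/6J mice was sequenced as whole tissue, with 1 library for the CKO mice and 1 for the control mice. The CKO mice received AAV9 carrying shRNA against Regnase-2 (Zc3h12b) into the tail vein at 11 weeks of age; the labels call them proximal-tubule conditional knockout mice, although the methods describe a knockdown by shRNA. AAV9 is stated to reach mainly the proximal tubules. The controls received AAV9 too, described in one place as an empty vector and in another as a control shRNA. Both groups ate standard chow and were otherwise untreated. The kidneys were analysed at 14 weeks, although the description of the injection places their harvest at 16 weeks. The sex of the mice and the number behind each library are not given in the sources used here. The comparison asks how loss of Regnase-2, an RNase that degrades mRNA, changes the kidney's transcripts.

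Organic anion transporting polypeptides are membrane proteins that carry bile salts, steroid conjugates, thyroid hormones, prostaglandins and many drugs into cells without using the sodium gradient. In the mouse kidney some of them sit in the tubular epithelium, where they work beside the organic anion transporters of the Slc22 family. The Slco1a genes are a rodent expansion of neighbouring copies, whereas the Slco2, Slco3 and Slco4 genes are older. Some of these older genes are expressed in many tissues.

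Zc3h12b, the targeted gene, had 47 control and 59 CKO reads. Its log2 ratio after scaling was -0.25, with a 95% interval from -0.83 to 0.33, so no fall was detectable at this depth and the gene does not check the labels. A read here is 1 unit of the normalized value that the authors deposited, above the floor of its library, a constant, 34 for the control and 50 for the CKO mice. The libraries held 38851231 and 43588721 such reads. The CKO library was scaled by 0.667, the median gene ratio of control to CKO reads, and 1 was added to both values before the log2 ratio was taken. The interval is the exact Clopper-Pearson interval of the ratio without the added 1. It takes each unit as 1 sequenced read, which was not checked against the raw data, covers counting error only and says nothing about the spread between mice, so each difference below compares 2 libraries and has no replicate check.

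Of the 8 Slco genes, 5 were at least 2-fold lower in the CKO library: Slco1a1, Slco1a4, Slco1a6, Slco3a1 and Slco4c1. Of the 17469 genes kept, those reaching 10 scaled reads in either library, 934 were that much lower, which is 5.35%. Slco4a1 was the only 1 of the 8 that was at least 2-fold higher, where 2334 of all genes, or 13.4%, were. Slco2a1 and Slco2b1 were higher by less than 2-fold. All 8 passed the filter on reads, and their median log2 ratio was -1.08, beside 0.022 for all genes kept. In whole tissue, fewer cells of a type and less RNA per cell cannot be told apart. The size of the fall differed widely. Slco1a1 was 14.7-fold lower, while Slco1a6, Slco3a1 and Slco4c1 were 2.07-fold to 2.17-fold lower, close to the 2-fold line. With both libraries scaled to equal totals, 1 of the 8 was at least 2-fold lower, Slco1a1, and 2 were higher, Slco2b1 and Slco4a1, beside 2.47% and 21.9% of all genes in that setting. No member changed sign under any setting tried.

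**Figure D1:**
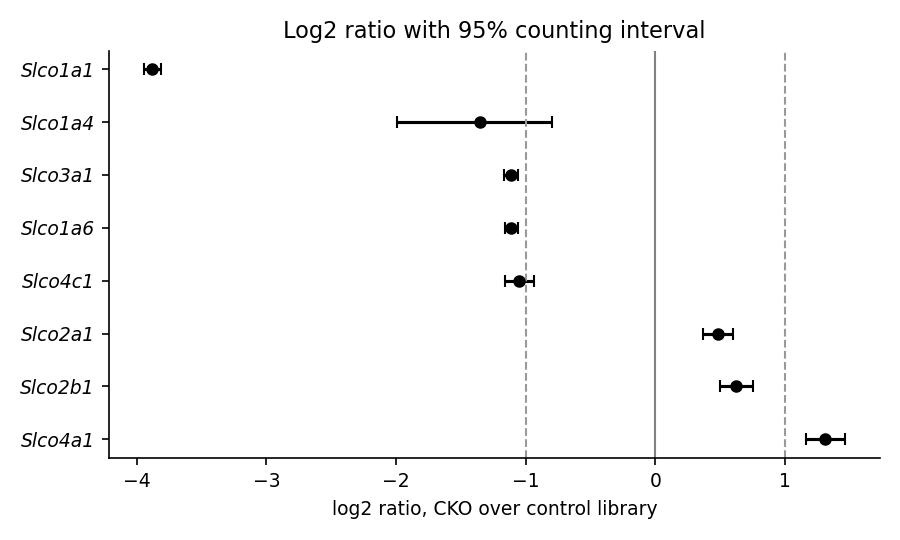
Log2 ratio of each Slco gene, CKO over control library (x axis), with bars for the 95% counting interval, ordered from the lowest to the highest. The dashed lines mark 2-fold: Slco1a1 lies at -3.88, Slco1a6, Slco3a1 and Slco4c1 lie just past the lower line, and Slco4a1 lies past the upper line at 1.31.

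Slco1a1 encodes a transporter of steroid sulfates and other organic anions that is found in the brush border of the mouse proximal tubule and is known to depend on androgens. It had 20695 control and 2114 CKO reads, or 1409 after scaling. The CKO library was thus far below the control, by a log2 ratio of -3.88 with an interval from -3.94 to -3.81. In fold terms it was 14.7-fold lower. It ranked 13 from the lowest of the 17469 genes. Among the 6417 genes that reached 1000 scaled reads in either library it ranked 6 from the lowest.

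Slco1a6 encodes a close relative that is expressed mainly in the kidney. It had 8529 control and 5926 CKO reads, 3951 after scaling. Its log2 ratio was -1.11 with an interval from -1.16 to -1.06, which lies past the 2-fold line on counting error alone. Slco1a4 encodes a transporter of bile salts and cardiac glycosides known mainly from liver and the blood-brain barrier. It was barely detected here, with 68 control and 39 CKO reads. Its log2 ratio of -1.35 had an interval from -1.99 to -0.80, so its counts do not place it on either side of the 2-fold line, and it depended on both the floor and the scaling. In settings added after seeing the data it was -0.76 with the floor kept and the CKO values scaled, and -0.79 with the floor subtracted and no scaling. It was -0.19 with the values as deposited, where neither was done.

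These 3 genes lie in 1 cluster on the minus strand of chromosome 6 in GRCm38: Slco1a4 at chr6:141805440-141856199, Slco1a1 at chr6:141907282-141946962 and Slco1a6 at chr6:142085761-142208521. Their coding sequences had 2010 bases each. Identity was 86.7% between Slco1a1 and Slco1a4, 85.0% between Slco1a4 and Slco1a6, and 83.9% between Slco1a1 and Slco1a6. All other pairs among the 8 shared between 45.3% and 55.6% of the longer coding sequence. Stretches as long as a read were rarely shared. Of the 3805 windows of 100 bases in the longest Slco1a1 transcript, 33 (0.867%) also occurred in a transcript of another gene. The share was 1.10% for Slco1a4 and 2.14% for Slco1a6, and no such window was found for the other 5. Only exact matches were counted, so reads with mismatches could still be shared among the Slco1a genes.

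The promoters of Slco1a1, Slco1a4 and Slco4a1 are shown for the base context at their starts. The genes Slco1a1 and Slco1a4 are close in coding sequence and position but differed in ratio, and Slco4a1 had the highest ratio. RefSeq promoters on GRCm38.p6 were found for 7 of the 8 genes, with no entry for Slco3a1. Each line gives the 250 bases before the RefSeq start, 5' to 3' on the strand of the gene, and none overlaps an annotated gene of GENCODE M21. Slco1a1 is at chr6:141946963-141947212 on the minus strand, Slco1a4 at chr6:141856221-141856470 on the minus strand and Slco4a1 at chr2:180455995-180456244 on the plus strand. Capitals mark matches on either strand to 4 motifs: the core promoter element TATAAA, the half-site of HNF1 spelled GTTAAT, the half-site of nuclear receptors spelled AGGTCA, and the GC box spelled GGGCGG. None of the matches overlapped another.
Slco1a1: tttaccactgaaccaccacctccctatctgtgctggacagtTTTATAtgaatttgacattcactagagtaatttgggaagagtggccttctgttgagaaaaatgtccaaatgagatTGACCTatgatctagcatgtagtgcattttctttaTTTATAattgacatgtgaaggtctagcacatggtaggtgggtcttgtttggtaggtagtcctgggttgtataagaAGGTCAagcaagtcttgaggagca
Slco1a4: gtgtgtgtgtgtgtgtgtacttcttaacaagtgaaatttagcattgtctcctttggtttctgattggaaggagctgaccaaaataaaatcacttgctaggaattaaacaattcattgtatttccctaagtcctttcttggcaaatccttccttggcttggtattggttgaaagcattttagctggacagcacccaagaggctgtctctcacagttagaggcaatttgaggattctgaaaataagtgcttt
Slco4a1: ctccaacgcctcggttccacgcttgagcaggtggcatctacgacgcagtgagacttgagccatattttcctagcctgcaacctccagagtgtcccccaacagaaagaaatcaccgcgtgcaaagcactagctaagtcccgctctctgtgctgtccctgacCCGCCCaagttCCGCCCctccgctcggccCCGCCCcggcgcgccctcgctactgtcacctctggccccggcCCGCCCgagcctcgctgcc

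The Slco1a1 window held 2 matches to TATAAA and 2 to AGGTCA, the Slco1a4 window held none of the 4 motifs, and the Slco4a1 window held 4 matches to GGGCGG. Of 32851 promoter windows of the same length, 12.4% held the core promoter element, 14% the nuclear receptor half-site, 32.7% the GC box and 6.43% the HNF1 half-site, so each match is common. The windows of Slco1a1 and Slco1a4 were 40.4% and 39.2% G or C, and that of Slco4a1 was 64.8%. A match is a description of letters and not a binding site.

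The genes around the Slco1a genes did not share the ratio of Slco1a1. Gm6614, which lies between Slco1a1 and Slco1a6 at chr6:141971845-142011414, had 90 control and 406 CKO reads, a log2 ratio of 1.58 with an interval from 1.26 to 1.93. It shares 58 of the 100-base windows of Slco1a6. Gm30784, between Slco1a4 and Slco1a1, had 116 and 86 reads, with an interval of its log2 ratio from -1.44 to -0.60. On the far sides, Pde3a, a phosphodiesterase gene, had 322 and 970 reads and an interval from 0.82 to 1.19, Gm28523 was at 0.81 and Gm7384 at -0.74 with 4 and 3 reads. Pyroxd1, Recql and Golt1b on the other side were at -0.086, -0.41 and -0.053. Thus the 2 genes adjoining Slco1a1 that had a value differed in direction, and the Slco1a1 ratio lay below that of each gene named here.

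Slco4c1 encodes a transporter of cardiac glycosides and thyroid hormone in the proximal tubule, and lies at chr1:96816270-96872171 on the minus strand. It had 1549 control and 1120 CKO reads, 747 after scaling. Its log2 ratio was -1.05 with an interval from -1.16 to -0.94, which includes the 2-fold line. The antisense gene Panct2 overlaps its start and had 140 and 189 reads, at -0.15. Whether the authors' counting used strand is not given in the sources used here, so reads from the overlap cannot be told apart. Annotated antisense genes also overlap Slco1a6, Slco2a1, Slco2b1 and Slco3a1, and their reads were not analysed here. Of the other genes of that stretch, St8sia4 was at 1.63, while Fam174a, Gm15427, Gm6430, D1Ertd622e, Ppip5k2 and Gin1 lay between -0.21 and 0.21.

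Slco4a1, at chr2:180456245-180474867 on the plus strand, encodes a widely expressed carrier of thyroid hormones and prostaglandins. It moved the other way from Slco4c1, with 455 control and 1690 CKO reads, 1127 after scaling. The log2 ratio was 1.31, with an interval from 1.16 to 1.46, which is 2.48-fold higher with limits of 2.23 and 2.75. Slco4a1 ranked 1658 from the highest of the 17469 genes, so 9.49% of genes were at least as high. The coding sequences of the 2 Slco4 genes were 52.0% identical. The difference between the log2 ratios of Slco4c1 and Slco4a1 was -2.36, with an interval from -2.55 to -2.17 that does not depend on the scaling.

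Slco2a1, at chr9:102988712-103096002 on the plus strand, encodes the prostaglandin transporter, which takes prostaglandins into cells for breakdown. It had 875 control and 1836 CKO reads, 1224 after scaling, a log2 ratio of 0.48 with an interval from 0.37 to 0.60. Slco2b1, at chr7:99657804-99711340 on the minus strand, encodes a carrier of steroid sulfates and many drugs. It had 786 and 1816 reads, 1211 after scaling, a log2 ratio of 0.62 with an interval from 0.50 to 0.75. Both were higher in the CKO library, by less than 2-fold in the main setting but by more with the values as deposited, at 1.05 and 1.19, with the floor subtracted and no scaling, at 1.07 and 1.21, and with the proximal tubule markers at 0, at 1.29 and 1.42. The last 2 settings were chosen after seeing the data. The ratios of Slco2a1 and Slco2b1 did not differ beyond counting error. Slco3a1, at chr7:74275419-74554780 on the minus strand, encodes a widely expressed carrier of prostaglandins and thyroxine. It had 6441 control and 4460 CKO reads, 2973 after scaling, a log2 ratio of -1.11 with an interval from -1.17 to -1.06. The carriers of prostaglandins among the Slco genes therefore did not move together.

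**Figure D2:**
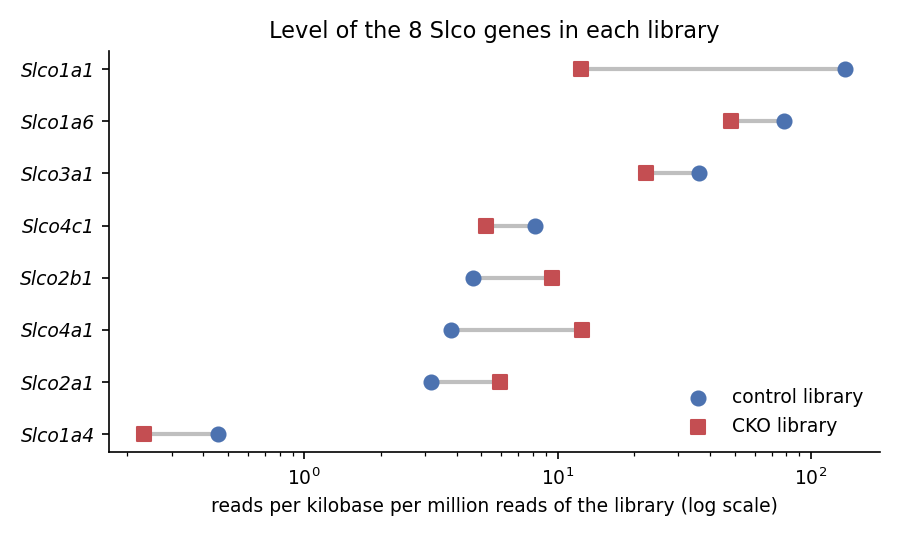
Level of each Slco gene in the control library (circles) and the CKO library (squares), in reads per kilobase of the longest transcript per 1000000 reads of that library, on a log axis. Slco1a1 leads in the control at 136 and falls to 12.4, while Slco1a6 leads in the CKO library at 48.3.

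Levels between genes were compared as reads per kilobase of the longest transcript per 1000000 reads of the library. In the control library Slco1a1 was the highest of the 8 at 136, followed by Slco1a6 at 78.0, Slco3a1 at 36.1 and Slco4c1 at 8.12. Slco2b1 at 4.62, Slco4a1 at 3.78 and Slco2a1 at 3.16 followed, and Slco1a4 was the lowest at 0.458. No neighbours in that order had overlapping exact Poisson intervals, and the order was the same for all 8 with lengths from the union of the exons. In the CKO library Slco1a6 was the highest at 48.3 and Slco3a1 came next at 22.3. Slco4a1 at 12.5 and Slco1a1 at 12.4 were next, with intervals from 11.9 to 13.1 and from 11.9 to 13.0, so they did not differ beyond counting error. Slco2b1 at 9.51, Slco2a1 at 5.91, Slco4c1 at 5.24 and Slco1a4 at 0.234 followed. With the exon union, Slco1a1 at 9.19 stood above Slco4a1 at 8.08, and Slco4c1 at 5.24 above Slco2a1 at 3.11. Among 16210 genes with a length, the control level of Slco1a1 ranked 420 and its CKO level 5140 from the highest.

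The make-up of the family changed with it. Slco1a1 gave 52.5% of the 39398 reads of the 8 genes in the control library, with a Clopper-Pearson interval from 52.0% to 53.0%, and 11.1% of the 19001 in the CKO library, from 10.7% to 11.6%. Slco1a6 went from 21.6% to 31.2% and Slco3a1 from 16.3% to 23.5%. Slco2a1, Slco2b1 and Slco4a1 each gave between 1.15% and 2.22% in the control and between 8.89% and 9.66% in the CKO library. These shares need no scaling between libraries. Summed over the 8 genes, the scaled reads fell to 12667, a log2 ratio of -1.64 with an interval from -1.66 to -1.61. Without Slco1a1 the sum had 18703 and 16887 reads, for a log2 ratio of -0.73 in the main setting. Unlike the shares, this direction depends on the scaling. With the proximal tubule markers at 0, chosen after seeing the data, the factor was 1.16 and the scaled CKO sum lay above the control sum.

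Pairs of members were compared within each library, which also needs no scaling. For each Slco1a6 read the control library held 2.43 Slco1a1 reads and the CKO library 0.357, a difference in log2 ratio of -2.77 with an interval from -2.85 to -2.69. Of the 28 pairs, 21 had an interval that left out 0. The 7 that did not were the 6 pairs among Slco1a4, Slco1a6, Slco3a1 and Slco4c1, and the pair Slco2a1 and Slco2b1. Slco3a1 and Slco1a6 differed by -0.0049, with an interval from -0.078 to 0.068. The 8 genes thus fell into 4 levels of ratio within counting error. Slco1a1 and Slco4a1 each stood alone. Slco1a4, Slco1a6, Slco3a1 and Slco4c1 formed 1 group, and Slco2a1 and Slco2b1 a pair. The place of Slco1a4 rests on 68 and 39 reads and on the floor. With the floor kept and CKO scaled, a setting added after seeing the data, Slco1a4 was at -0.76, above Slco1a6 and Slco3a1 at -1.09.

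**Figure D3:**
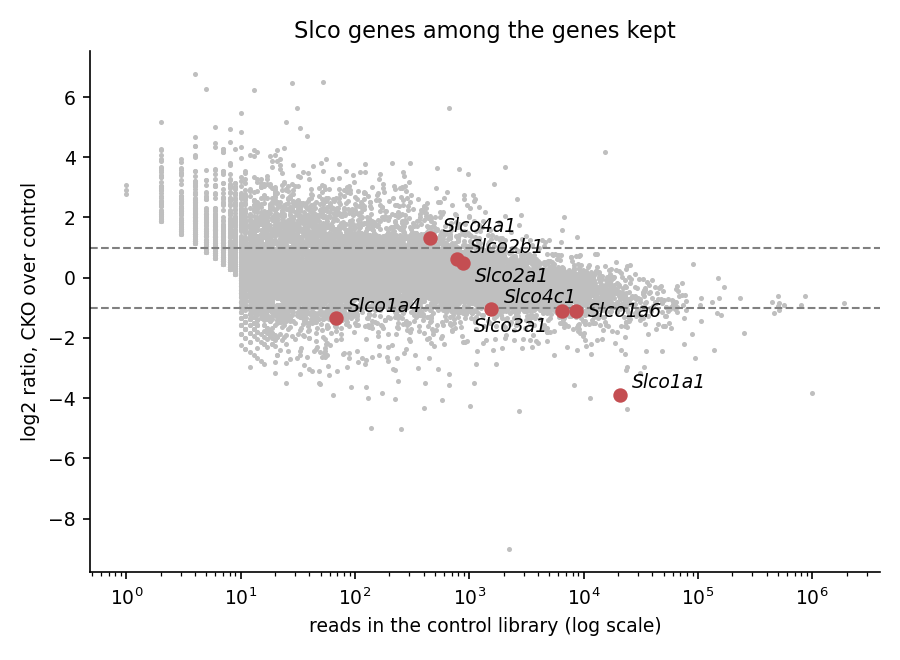
Log2 ratio, CKO over control library, against the reads in the control library (log axis) for the 17469 genes kept (grey), with the 8 Slco genes in red. Dashed lines mark 2-fold; Slco1a1 lies at -3.88, and the cloud tilts downward toward genes with many reads.

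The ratio of a gene also went with its number of reads, taken as the mean of the control reads and the scaled CKO reads. Among the 1093 genes with a mean of 5000 or more, which include Slco1a1 and Slco1a6, the median log2 ratio was -0.46, 13.8% were at least 2-fold lower and 1.92% higher. Among the 4851 genes with a mean from 1000 to 5000, which hold Slco3a1, Slco4c1 and Slco2a1, the median was -0.13 and 3.03% were at least 2-fold lower, the same share as higher. Slco2b1 and Slco4a1 lie among the 6699 genes with a mean from 100 to 1000, with a median log2 ratio of 0.12, 2.81% at least 2-fold lower and 12.4% higher. Slco1a4 lies among the 4326 genes with a mean from 10 to 100, with a median log2 ratio of 0.32, of which 7.74% were at least 2-fold lower and 27.6% at least 2-fold higher.

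The genes nearest to Slco1a1 in log2 ratio, among those with at least 1000 scaled reads, were Kap at -3.83, Cyp7b1 at -3.99, Pzp at -3.57, Car3 at -3.51 and Gm4208 at -4.27. Those nearest to Slco4a1 included Tmem43, Anxa2, Parp9 and H2-K1, all within 0.0083 of its ratio. The likeness rests on 1 ratio from 2 libraries.

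The other transporters of organic anions in the kidney also moved in both directions. Of 23 genes on that list, 8 lay past 2-fold on the lower side and 2 on the higher side, beside 5.35% and 13.4% of all genes, which are also the shares to set beside each other list. The median log2 ratio of the 23 was -0.50 beside 0.022 for all genes. Slc22a28 and Slc22a30 among them also belong to the male-biased list described next. Without them 6 of 21 were lower, and the median was -0.49. Slc22a7, an anion exchanger, was the lowest, with 2710 control and 189 CKO reads and a log2 ratio of -4.42. It was the only gene of the list below Slco1a1. Slc22a12, the urate transporter with the most reads of the list, had 57635 and 27095 reads and was at -1.67. Slc22a30, Slc22a28, Slc22a19, Slc17a3 and Slc22a6 were at -2.52, -2.39, -2.16, -1.64 and -1.62. The 2 that were higher were the efflux pumps Abcc3, with 100 and 963 reads, at 2.67, and Abcc4, with 812 and 4185 reads, at 1.78. No other gene whose symbol starts with Slco had a value: the 9 listed, among them Slco1a5 and Slco1b2, were not analysed here. Family members under other symbols were not searched for. Gm6614, which shares 58 of the 100-base windows of Slco1a6, was treated as a neighbour only.

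Male-biased kidney genes, a list that the androgen dependence of Slco1a1 brought in, were all lower. The list was chosen with the fall of Slco1a1 and other earlier results of these data known, so its count is no independent check. All 13 lay below the 2-fold line, around a median log2 ratio of -2.41. They ran from Acsm3 at -4.35 to Odc1 at -1.79. Kap, a kidney androgen-regulated protein, had 987520 control and 104163 CKO reads. The log2 ratio of Slco1a1 lay within their range, with 2 of the 13 below it, Acsm3 and Cyp7b1, and those of the other 7 Slco genes lay above all 13. The Y-linked genes Ddx3y, Eif2s3y, Kdm5d and Uty, chosen after the data were seen, were present in both libraries, with log2 ratios from -0.038 to 0.38. The part that whatever moved the male-biased genes had in the Slco1a1 ratio was not tested.

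Of 20 measured genes for prostaglandin synthesis, breakdown and receptors, 4 lay past 2-fold on the higher side and 0 on the lower. Of all genes, 13.4% and 5.35% did in the same main setting, and the list was not counted under another scaling. The median log2 ratio was 0.38. Ptgs2, the inducible cyclooxygenase, had 11 and 175 reads, for a log2 ratio of 3.29, and Hpgds, Ptger4 and Ptgds were at 2.23, 1.98 and 1.24. Tbxa2r was the lowest at -0.80. Ptgr2, with the most reads, was at -0.52. Hpgd, the enzyme that breaks down prostaglandins taken up by Slco2a1, had 502 and 766 reads and was at 0.025, with an interval from -0.14 to 0.19. Slco2a1 at 0.48 lay near the median of this list.

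Of 9 genes reported here that handle thyroid hormone, a substrate of Slco4a1, Slco4c1 and Slco3a1, 2 passed 2-fold upward and 0 downward, beside the same shares of all genes. Their median was -0.026. Klf9, a thyroid hormone-responsive transcription factor gene with the most reads of these, had 7188 and 6021 reads and was the lowest at -0.84. Slc7a5 was at 1.81, and Dio3 at 1.52 rested on 4 and 20 reads. Of 16 regulators of drug transporters reported here, 2 were at least 2-fold lower, Ghr at -1.16 and Nr1h4 at -1.03, and 1 was higher, the prolactin receptor gene Prlr at 3.04 with 221 and 2744 reads. The median of the regulators was -0.29, and Hnf4a, with the most reads, was at -0.99. The list of PDZ adaptors, which hold transporters at the membrane, also includes a binding partner of Pdzk1. None of its 5 genes passed 2-fold. They ran from Pdzd3, with an interval from -1.07 to -0.92, to Slc9a3r2 at -0.055, and Pdzk1, a binding partner of Slco1a1 with the most reads of the list, was at -0.74.

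**Figure D4:**
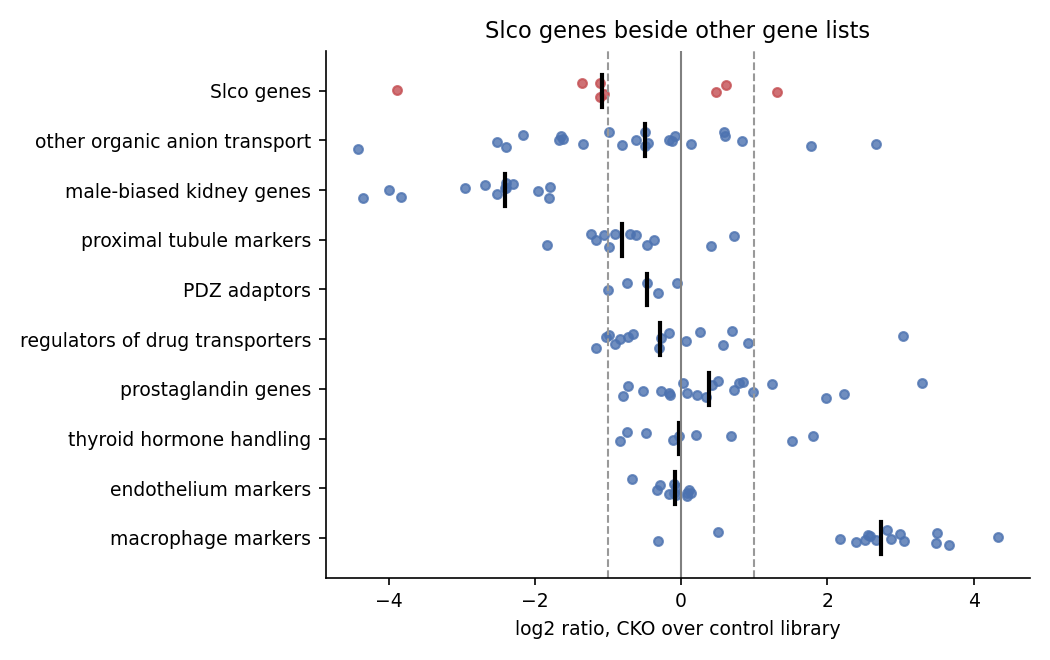
Log2 ratio, CKO over control library (x axis), of each gene of 10 lists (points, spread vertically for legibility only) with the list median (black bar). The Slco genes in red spread from -3.88 to 1.31, the male-biased genes all lie below -1, and the macrophage markers have a median of 2.74.

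Markers of cell types moved between the libraries too. The 12 proximal tubule markers, all measured, summed to 23809 control and 15300 CKO reads per 1000000 reads of the library, with Acsm2 the most abundant in both. Their median log2 ratio was -0.80, and 4 were at least 2-fold lower: Acsm2 at -1.83, Slc27a2 at -1.23, Slc34a1 at -1.17 and Miox at -1.05. Slc13a1 was the highest at 0.73. Slco1a6, Slco3a1 and Slco4c1 lay within the range of these markers, with 3 of the 12 below Slco3a1. Slco1a1 lay below all 12, and with the CKO library scaled to the median of these markers, a setting chosen after seeing the data, it was at -3.07. Slco1a6, Slco3a1 and Slco4c1 were then between -0.31 and -0.25. The part of the proximal tubule in these ratios was not tested.

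The 12 endothelial markers, all measured, summed to 548 and 677 per 1000000, led by Plvap in both libraries. None passed 2-fold, with a median of -0.081, from Kdr at -0.67 to Emcn at 0.14, so Slco2a1 and Slco2b1 lay above each of them. Of 16 measured macrophage markers 14 passed 2-fold upward, around a median of 2.74. They summed to 159 per 1000000 reads in the control, led by Csf1r, and 848 in the CKO library, led by Lyz2. Ms4a7 at 4.33 was the highest and Mertk at -0.32 the lowest. Of 9 measured markers of injured tubule 8 passed 2-fold upward, around a median of 3.67, and they summed to 655 and 11450 per 1000000, led by Spp1. Lcn2 was the highest at 6.45 and Krt8 the lowest at 0.45. Of 7 fibroblast markers 6 passed 2-fold upward, around a median of 1.70, and they summed to 180 and 792 per 1000000, led by Pdgfrb in the control and Col3a1 in the CKO library. The part of these cell types in the ratios of Slco2a1, Slco2b1 and Slco4a1 was not tested.

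The medians of the thick ascending limb, distal convoluted tubule, collecting duct and podocyte markers lay between -0.25 and 0.35, and of these markers only Pvalb, at -1.17, passed 2-fold. The 4 measured T cell markers were all at least 2-fold higher, at a median of 1.85, but summed to 1.13 and 6.13 per 1000000, and the 1 measured B cell marker, Cd79b, was at 0.21. Among hepatocyte markers, listed because Slco1a1 and Slco1a4 are abundant in liver, Alb had 117 control and 121 CKO reads. Its log2 ratio after scaling was -0.53, with an interval from -0.92 to -0.16. Apob and Ttr, which the kidney also expresses, were at -2.35 and -2.33, Serpina1a was at 1.09, and the median of the 5 measured was -0.53.

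**Figure D5:**
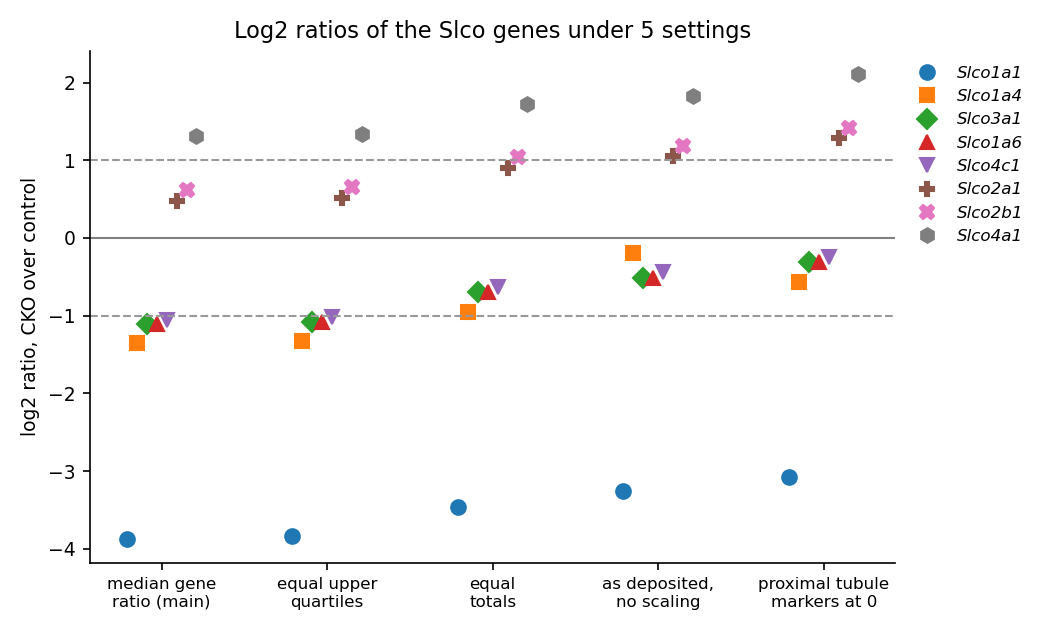
Log2 ratio, CKO over control, of the 8 Slco genes (symbols) under 5 settings of floor and scaling (x axis), with dashed lines at 2-fold. Of these settings, Slco1a4, Slco1a6, Slco3a1 and Slco4c1 were all past the lower line under the median gene ratio and equal upper quartiles only.

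The scaling between the libraries, and for Slco1a4 also the floor, set how many of the Slco genes passed 2-fold. Slco1a1 ranged from -3.88 to -3.07 and Slco4a1 from 1.31 to 2.11 over the 5 settings plotted. Slco1a6 ranged from -1.11 to -0.31. With equal totals Slco2b1 passed 2-fold at 1.04, while Slco2a1 at 0.90 did not. The median of all genes moved from 0.022 to 0.44 with equal totals. A scaling shifts all genes alike, so the Slco median relative to that of all genes, -1.10, was the same under both by construction.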

How the data were processed

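Whole-kidney RNA from 1 Control and 1 CKO library (stranded mRNA kit, NovaSeq) was analysed. Per the submitters' notes and methods, the authors aligned reads with STAR 2.7.3a to mm10, counted with HTSeq and normalized with DESeq2. Cufflinks 2.2.1, FastQC and edgeR are also named, and which tool gave the deposited values was not checked. The deposited values are treated as a score without a standard unit: whole numbers for 20002 genes, starting at 35 and 51. Every whole number in the first 21 above each start occurs. What the floor is was not given in the sources used here. The column minimum minus 1 was subtracted, and the remainder, called reads, is a normalized value: that 1 unit is 1 sequenced read is an assumption on which all intervals rest. The further steps are given with the results. Totals were 38851231 and 43588721 reads.

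Members and lists were chosen with earlier results of these data known, including the fall of Slco1a1. Genes named come from the members, their neighbours, the 5 nearest in log2 ratio, and of each list the highest, the lowest, the one with most control reads and up to 6 past 2-fold; Alb and Slco2a1's partner Hpgd were named after their values were seen, as were the bins by reads. Some genes that this rule covers are not reported here. Positions and lengths came from GENCODE M21 (GRCm38), promoters from RefSeq. Alternatives were pseudocounts of 0.1 and 10, no filter or 50 reads, equal totals, equal upper quartiles, the values as deposited, exon-union lengths and, chosen after seeing the data, proximal tubule markers at 0, the floor kept with scaling, and the floor subtracted without scaling. The steps were tested on simulated data. Python 3.11.15, numpy 2.4.6, pandas 2.3.3, scipy 1.17.1, matplotlib 3.10.9 and biopython 1.88 were used.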

Additional observations from a re-analysis of the deposited data

How the results depend on the processing

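Of 64 log2 ratios of single Slco genes under the alternatives that can change them, which leaves out the filters on reads, 32 stayed within their counting interval and 32 moved beyond it, and none changed sign. The counts depended on the scaling, and those of the other gene lists were taken in the main setting only. With equal totals, 1 Slco gene was at least 2-fold lower and 2 were higher, their median log2 ratio was -0.66, and 437 of all genes were lower and 3870 higher. With the values as deposited these were 1, 3, -0.32, 131 and 3574. With proximal tubule markers at 0, a setting chosen after seeing the data, they were 1, 3, -0.28, 234 and 6842. The deposited values change floor and scaling together, so each was also changed alone, after seeing the data. Without scaling but with the floor subtracted these were 1, 3, -0.50, 338 and 4944. With the floor kept and CKO scaled, 4 Slco genes were lower and 1 higher, with a median of -0.88, and 463 of all genes were lower and 1196 higher. Of the genes past 2-fold, 71.4% were higher in the main setting, 89.9% with equal totals, 96.5% as deposited, 93.6% without scaling and 96.7% with the markers at 0. A scaling shifts all genes alike, so by construction it hardly moves the Slco median relative to that of all genes, -1.10 in the main setting; with the floor kept it was -0.88. A minimum of 50 reads left 617 genes at least 2-fold lower, since fewer genes were counted. Lengths from the exon union kept the control order of all 8.

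No paired analysis was possible because the labels give no replicate numbers, with 1 library for either group. Depth limits Slco1a4, with 68 and 39 reads, and Zc3h12b, with 47 and 59. With 1 library per group, differences between mice, their handling or the libraries cannot be told apart from the knockdown.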
